A study of Mus musculus with 8 samples.

Results

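The oxidative phosphorylation genes were taken by symbol, as all genes on the array whose names begin with Nduf, Uqcr, Atp5 or Cox followed by a digit from 4 to 8, together with Sdha, Sdhb, Sdhc and Sdhd. Only probe sets that name 1 gene were used, and where a gene had several the one whose 8 arrays gave the highest average stood for it. This gave 90 of the 18193 genes measured. By complex they were 6 core subunits, 28 accessory subunits and 8 assembly factors of complex I, 4 subunits of complex II, 8 of complex III, 11 of complex IV, 8 paralogs with a tissue-restricted pattern and 17 subunits of ATP synthase. The affinity of each probe set sets its level, so values were compared between lines and never between genes.

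The series profiled 8 mouse embryonic stem cell (ESC) lines, derived as blastocyst outgrowths of matings between mice heterozygous for Zfp281, a zinc finger transcription factor. Lines 3, 3.2 and 3.3 were wild-type, 5 and 3.1 were heterozygous, and 7, 3.34 and 3.38 were Zfp281 deficient (null), with 1 Affymetrix array for each line. The targeted allele carries a neomycin resistance cassette between loxP sites in place of the gene, and the study also describes a null allele from which the cassette was removed, without a statement in the sources used here on which form each line carries. The lines were grown with LIF on primary mouse embryonic fibroblasts without further treatment. The samples may thus have held feeder fibroblasts beside ESCs, and in such bulk RNA a lower number of cells of a type cannot be told apart from less RNA in each cell. By the study's account null line 7 and wild-type line 3 shared a litter, as did null line 3.38 and wild-type line 3.3. No source used here gives the sex of the embryos.

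Oxidative phosphorylation takes place in the inner mitochondrial membrane. Complexes I and II pass electrons from NADH and succinate to ubiquinone, complex III passes them to cytochrome c and complex IV to oxygen, and ATP synthase uses the proton gradient that complexes I, III and IV build. Mouse ESCs in LIF culture use both glycolysis and respiration, and the genes for nearly all subunits lie in the nucleus, where NRF1 and ETS-family factors such as GABP are known activators of many of them.

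Zfp281 mRNA itself read 3.64, 5.06 and 5.23 on the log2 scale in the null ESCs, against 6.88, 7.93 and 6.72 in wild-type and 6.69 and 6.97 in heterozygous ESCs. A measure of RNA and the summed ESC markers set the null lines apart. The sums of feeder and endoderm markers overlapped between null and wild-type lines. The 3′ minus 5′ difference, the average for the control transcripts Gapdh and beta-actin, which is larger when the 5′ ends of transcripts are less well represented, was 4.61 ± 0.34 (SD, n = 3) in wild-type, 4.64 ± 0.22 (n = 2) in heterozygous and 3.30 ± 0.55 (n = 3) in null lines on the log2 scale. All 3 null lines lay below all others, and the exact two-sided permutation p against wild-type was 0.1, the smallest that 3 lines against 3 allow. The summed linear level of 10 ESC markers, of which 9 were detected in all lines and Utf1 in none, was 8634 to 11342 in wild-type, 10965 to 11618 in heterozygous and 17604 to 19848 in null lines. That of the 18 feeder fibroblast markers measured was 3031 to 5328, 4033 to 4430 and 3021 to 3417, with Pdgfrb detected in no line, and that of 15 endoderm markers, with Foxa2, Afp, Ttr and Amn detected in no line, was 936 to 2555, 756 to 969 and 644 to 1001. Their part in the results on the respiratory genes was not tested.

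Of the 90 genes, 82 were detected, that is called present by the Affymetrix software in every line of at least 1 genotype. The other 8 were the complex I genes Ndufb1, Ndufb4 and Ndufaf3, the complex II gene Sdhc on its brightest probe set, and the paralogs Cox6a2, Cox7b2, Cox8b and Ndufa4l2. Cox8b, Ndufa4l2 and Ndufb1 were called present in no line, so no fold is given for them. Each of the 90 matched the RefSeq gene table by Entrez identifier.

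Promoter sequences from RefSeq (GRCm38.p6), 250 bases before to 50 bases after the annotated start, were at hand for 74 of the 90 genes. Those of the 3 genes that passed the test between null and wild-type lines (Uqcrfs1, Atp5o and Cox6b2) are printed here 5′ to 3′ on the strand of the gene. Sdhb and Uqcr11 are printed as examples of genes that hold both activator motifs, as Atp5k, Atp5l and Cox6a1 also do. Capitals mark an NRF1-type motif (GCATGCGC), an ETS core (CCGGAAG) or a G-rich string (GGGGAGGG) of the kind that Zfp281 is known to bind, each searched on both strands. Uqcrfs1 lies at chr13:30545267-30545566, minus strand, Atp5o at chr16:91931581-91931880, minus strand, Cox6b2 at chr7:4753045-4753344, minus strand, Sdhb at chr4:140961021-140961320, plus strand, and Uqcr11 at chr10:80406772-80407071, minus strand.
Uqcrfs1: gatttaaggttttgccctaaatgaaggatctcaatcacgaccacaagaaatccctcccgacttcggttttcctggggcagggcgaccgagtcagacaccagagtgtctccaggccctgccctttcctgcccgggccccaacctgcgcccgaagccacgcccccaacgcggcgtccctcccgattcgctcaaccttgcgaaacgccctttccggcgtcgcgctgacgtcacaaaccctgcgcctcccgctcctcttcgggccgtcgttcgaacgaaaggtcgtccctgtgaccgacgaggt
Atp5o: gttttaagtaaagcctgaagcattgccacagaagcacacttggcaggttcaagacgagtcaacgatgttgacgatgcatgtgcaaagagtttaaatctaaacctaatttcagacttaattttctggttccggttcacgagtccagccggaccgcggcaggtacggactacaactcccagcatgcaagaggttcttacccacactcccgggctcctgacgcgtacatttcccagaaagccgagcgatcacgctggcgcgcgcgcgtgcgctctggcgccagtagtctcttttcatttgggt
Cox6b2: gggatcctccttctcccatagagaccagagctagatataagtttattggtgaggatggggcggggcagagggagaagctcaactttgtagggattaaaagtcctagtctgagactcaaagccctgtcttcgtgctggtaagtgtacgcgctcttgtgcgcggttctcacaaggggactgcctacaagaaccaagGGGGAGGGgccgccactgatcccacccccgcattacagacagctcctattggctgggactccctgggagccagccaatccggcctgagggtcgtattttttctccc
Sdhb: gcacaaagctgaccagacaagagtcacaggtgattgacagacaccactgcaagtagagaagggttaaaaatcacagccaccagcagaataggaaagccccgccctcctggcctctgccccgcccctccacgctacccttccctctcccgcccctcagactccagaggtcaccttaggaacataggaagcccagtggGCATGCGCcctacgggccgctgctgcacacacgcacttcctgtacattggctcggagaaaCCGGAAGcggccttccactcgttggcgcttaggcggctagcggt
Uqcr11: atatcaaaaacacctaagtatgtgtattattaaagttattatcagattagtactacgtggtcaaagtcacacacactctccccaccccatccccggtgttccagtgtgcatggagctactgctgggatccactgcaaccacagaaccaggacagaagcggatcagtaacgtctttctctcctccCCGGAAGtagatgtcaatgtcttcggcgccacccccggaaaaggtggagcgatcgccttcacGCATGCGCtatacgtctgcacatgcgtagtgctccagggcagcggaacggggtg

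Uqcrfs1 and Atp5o held none of the 3 strings in this window, Cox6b2 held the G-rich string, and Sdhb and Uqcr11 each held 1 NRF1-type motif and 1 ETS core. Atp5k, Atp5l and Cox6a1, not printed, also held both motifs. Their log2 fold changes between null and wild-type lines were 0.30, 0.09 and −0.09, beside 0.75 for Sdhb and 1.27 for Uqcr11. The NRF1-type motif was in 11 of 74 promoters of the respiratory genes (14.9%), against 3.05% of 27025 genes with a promoter and 6.94% of 5966 detected genes. For the ETS core the counts were 19 of 74 (25.7%), 9.93% and 22.5%, and for the G-rich string 8 of 74 (10.8%), 12% and 16.4%. Among the 32 promoters of genes that were higher in every null line than in every wild-type line, 6 held the NRF1-type motif (18.8%), 8 the ETS core (25%) and 3 the G-rich string (9.38%). The windows differ in base composition, and a match is a description of the letters only.

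Between null and wild-type ESCs, 3 of the 90 genes rose at an adjusted p under 0.05 from limma and none fell, while 0.693% of all genes measured rose and 0.44% fell. The 3 were Uqcrfs1 of complex III, Atp5o of ATP synthase and Cox6b2 of complex IV. The median log2 fold change over the 90 genes was 0.20, beside −0.01 over all genes, and 69 genes had a higher and 21 a lower mean in null lines. As many as 6 genes, 2 each of complex I, complex III and ATP synthase, were past 2-fold higher and none was past 2-fold lower, against 1.37% and 1.1% of all genes. At an unadjusted p under 0.05 from limma, 30 were higher (33.3%) and 3 lower (3.33%), against 8.67% and 7.71% of all genes.

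Within the pairs from 1 litter the direction was similar. The median difference over the 90 genes was 0.28 between null line 7 and wild-type line 3 and 0.20 between null line 3.38 and wild-type line 3.3, beside −0.02 and 0.00 over all genes, and 48 genes (53.3%) were higher and 15 (16.7%) lower in the null line of both pairs, against 28.1% and 31.8% of all genes. In limma on these 4 arrays with litter as a block, which leaves 1 residual degree of freedom before moderation, Uqcrfs1, Cox6b2 and Atp5o did not pass (adjusted p = 0.0625, 0.0625 and 0.131) at log2 fold changes of 1.19, 1.01 and 0.81, while Ndufs5 and Atp5g1 did. With litter as a random block on all 8 arrays, the 3 genes passed together with Ndufa7 and Ndufb10.

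Without a threshold, 37 of the 90 genes (41.1%) were higher in every null line than in every wild-type line, and 1, Ndufv3, was lower in every null line, against 11.1% and 11.2% of all genes. Among the 82 detected genes these counts were 35 (42.7%) and 1 (1.22%), against 17.8% and 15.8% of all detected genes. Wild-type line 3.3, which has the smallest 3′ minus 5′ difference of its genotype (4.23 beside 4.86 and 4.75), was the highest wild-type line in 23 of the 37 genes, and in 45 of the 90. The 3′ minus 5′ difference, of whose variance 79.1% lies between genotypes, was also added to the fit. The median log2 fold change over the 90 genes was then 0.18 in place of 0.20, with 62 higher and 28 lower in mean. No gene passed, of the 90 or of all genes, and the median SE of the 90 was 0.30 in place of 0.15. Of the 37, which had been picked for high null values, 33 kept a higher null mean, with a median of 0.40 in place of 0.69. The matching share over all genes was not counted, so the 33 cannot be judged against it.

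**Figure D1:**
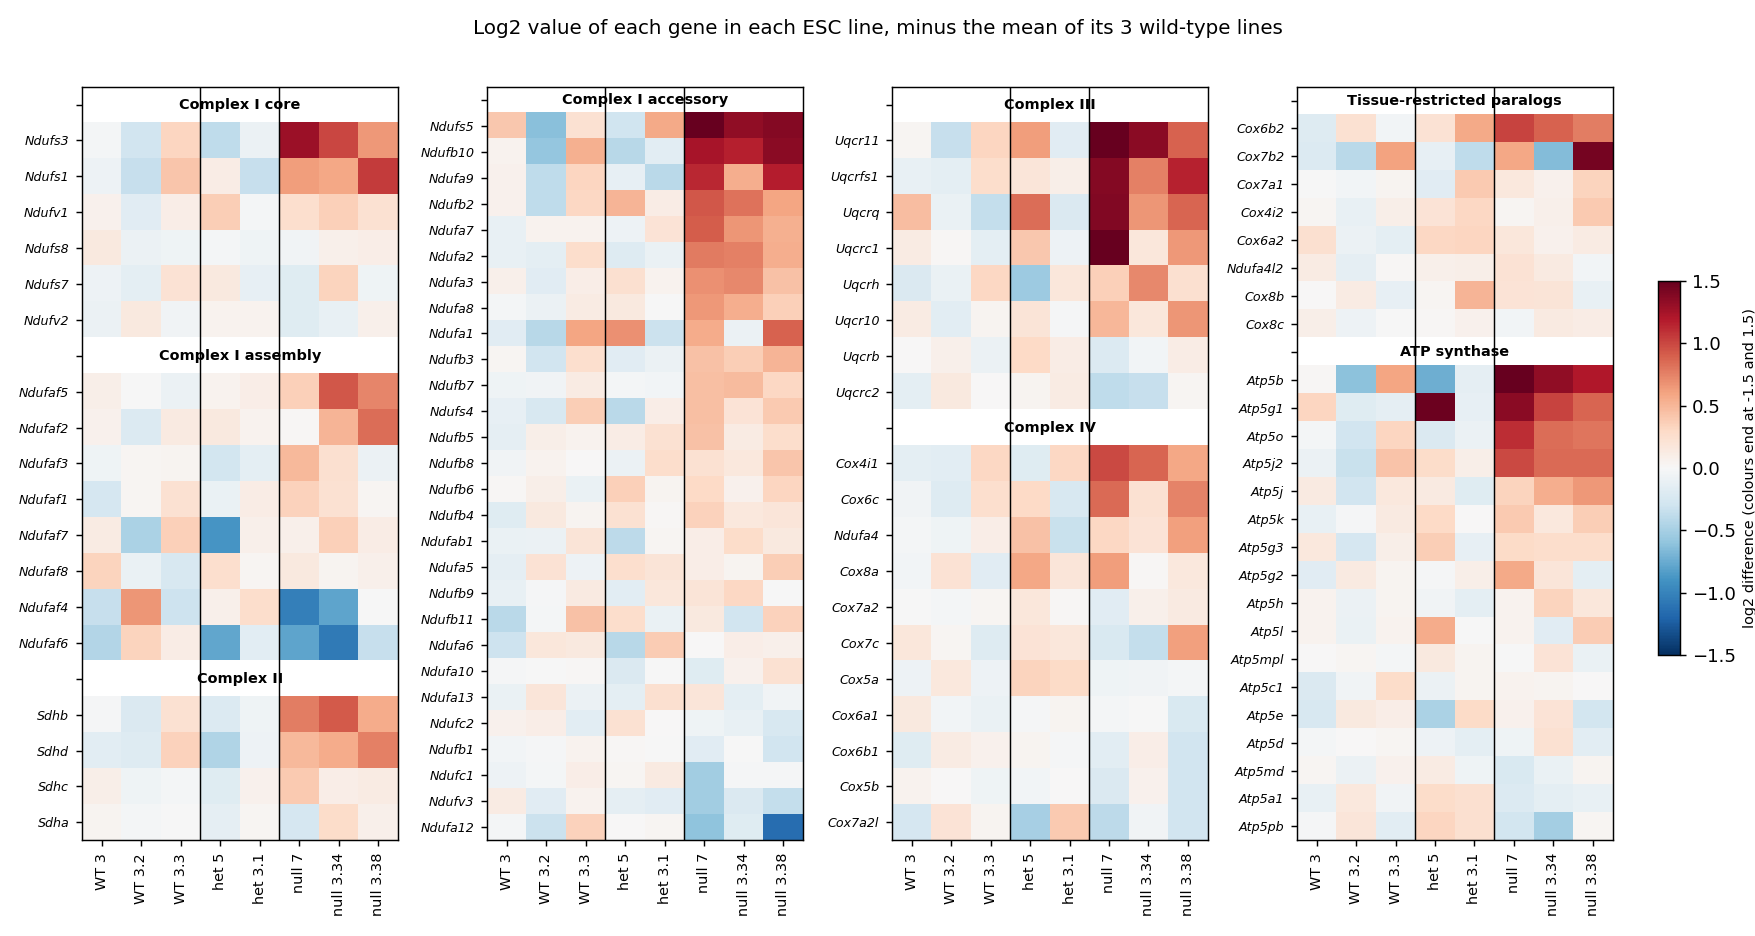
Log2 value of each of the 90 genes on its brightest probe set (rows, by complex and then by the fold change between null and wild-type) in each of the 8 ESC lines (columns), minus the mean of its 3 wild-type lines, as colour. Red rows in the 3 null columns are frequent in complexes II and III, in the upper part of the complex I accessory subunits and in ATP synthase, and pale rows fill most of complex IV.

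Uqcrfs1, the Rieske iron-sulfur protein of complex III, rose most clearly. Null lines 7, 3.34 and 3.38 read 9.22, 8.61 and 9.0 on the log2 scale, wild-type 3, 3.2 and 3.3 read 7.73, 7.70 and 8.10, and heterozygous 5 and 3.1 read 8.03 and 7.93. Each null line was above the 5 others, and the log2 fold change against wild-type was 1.10 (SE 0.18, adjusted p = 0.0406) from limma, or 2.14-fold. Leaving out 1 line at a time gave an adjusted p of 0.0325 to 0.155, under the threshold only without null line 3.34 or wild-type line 3.3.

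Atp5o encodes the subunit that ties the peripheral stalk of ATP synthase to its catalytic head. It had log2 values of 8.58, 8.33 and 8.94 in wild-type, 8.41 and 8.53 in heterozygous and 9.73, 9.46 and 9.42 in null lines. On this brightest probe set the null lines stood apart from the other 5, with a log2 fold change of 0.92 (SE 0.17, adjusted p = 0.0473), or 1.89-fold. With 1 line left out it passed only without wild-type line 3.3 (0.0309 to 0.189). The other probe set, called present in all 8 lines, was at 0.55 (adjusted p = 0.233 over all probe sets in limma). There the null lines, at 8.17, 7.59 and 7.49, lay above the wild-type lines, but heterozygous line 5, at 7.51, lay above null line 3.38.

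Cox6b2, the paralog of Cox6b1 that is best known from testis, gave 5.42, 5.84 and 5.56 in wild-type, 5.82 and 6.18 in heterozygous and 6.62, 6.49 and 6.38 in null lines. The heterozygous lines lay between the other genotypes in mean, with line 3.1 above every wild-type line. The log2 fold change was 0.89 (SE 0.15, adjusted p = 0.0443) for null lines, or 1.85-fold, and 0.39 (SE 0.17, adjusted p = 0.997) for heterozygous lines, both from limma. Without 1 of the heterozygous lines the null comparison still passed (0.0495 at the lowest), and without any other single line it did not (up to 0.173). With the 3′ minus 5′ difference in the fit its log2 fold change was 0.82, close to that without it, whereas those of Uqcrfs1 and Atp5o were 0.40 and 0.42. None of the 3 passed in that fit.

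A further 10 genes passed when the test was restricted to the 7306 detected genes, which lowers the number of tests: Atp5b, Atp5j2, Ndufa2, Ndufa7, Ndufa9, Ndufb10, Ndufs3, Ndufs5, Sdhb and Uqcr11. All 13 were higher in null lines. In this fit 13 of the 82 detected genes of the set passed, beside 442 of all 7306 detected genes, counted without regard to direction. Of these 10 names, Ndufa2 and Ndufa9 were chosen for this listing after their values were seen.

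**Figure D2:**
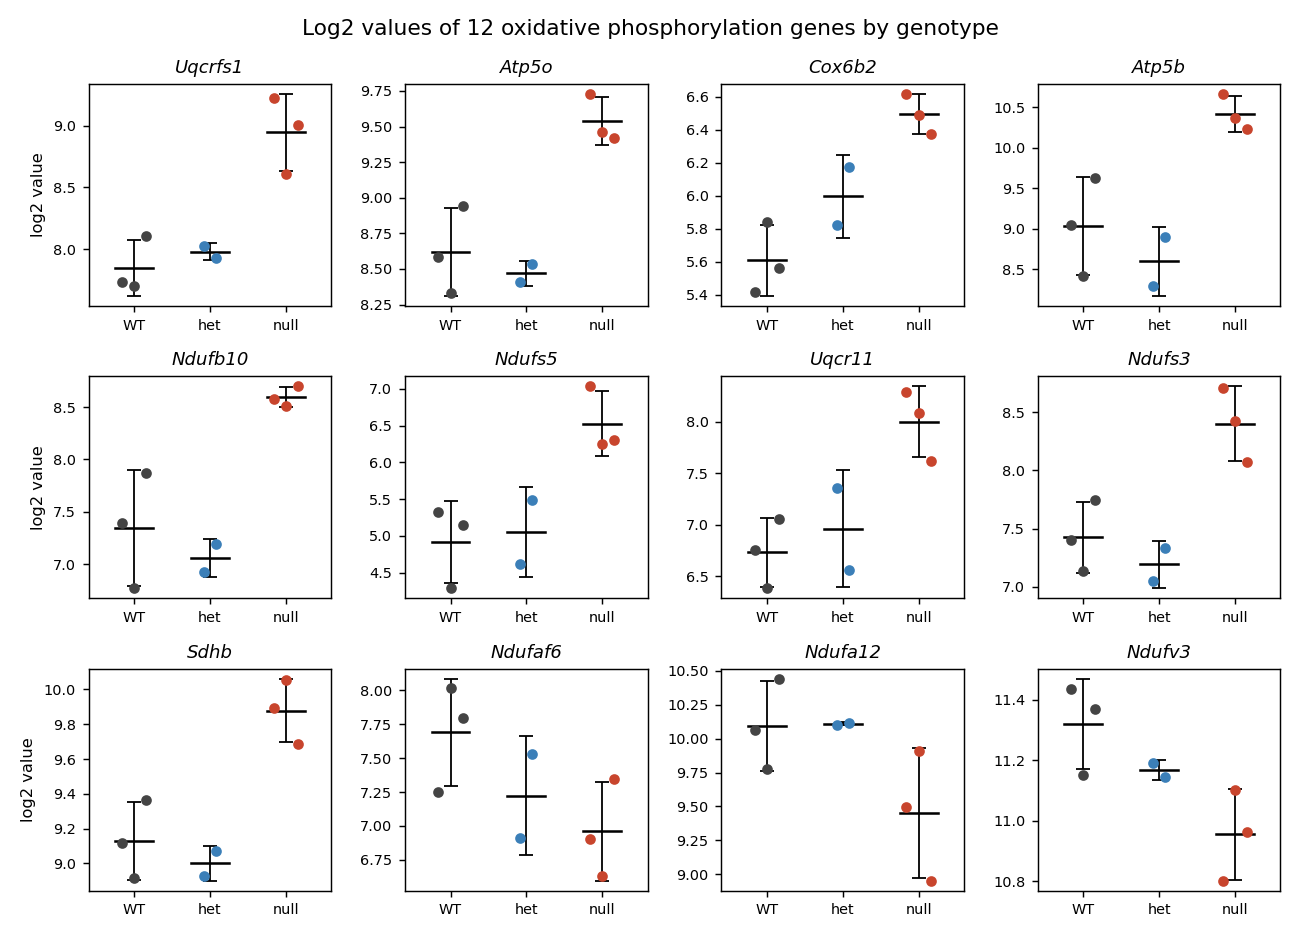
Log2 values (vertical axes, each on its own scale) of 12 genes in wild-type, heterozygous and null ESC lines, with 1 point for each line and the mean and SD of the genotype in black (n = 3, 2 and 3). In the first 9 panels the 3 null lines lie above all wild-type lines, and in the last 3 the null mean is the lowest.

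On the brightest probe sets complex III had the highest median of the groups, 0.62 over 8 genes, of which 1 rose and none fell, but with the mean of all probe sets of each gene its median was 0.29. Beside Uqcrfs1, the small subunit Uqcr11 had log2 values of 6.76, 6.38 and 7.05 in wild-type, 7.36 and 6.56 in heterozygous and 8.29, 8.09 and 7.62 in null lines. It was detected in all wild-type and null lines and in 1 heterozygous line, and its log2 fold change was 1.27 (SE 0.26, adjusted p = 0.0638). Uqcrq, another small subunit, gave 0.97 (SE 0.32, adjusted p = 0.17) on its brightest probe set and between −0.01 and 0.03 on 3 dimmer ones. The core protein Uqcrc2 and the subunit Uqcrb, named here after their values were seen, were at −0.24 and −0.04 on their brightest probe sets and at 0.35 and 0.35 on the other.

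The 4 genes of complex II, which is also the succinate dehydrogenase of the citric acid cycle, had a median of 0.40, and none passed. Sdhb, the iron-sulfur subunit, had log2 values of 9.12, 8.91 and 9.36 in wild-type, 8.93 and 9.07 in heterozygous and 9.89, 10.05 and 9.69 in null lines. Every null line was above every other line, with a log2 fold change of 0.75 (SE 0.15, adjusted p = 0.0565). Sdhd, one of the membrane anchors, gave 0.60 (SE 0.18, adjusted p = 0.131) on its brightest probe set and −0.25 on the other.

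The flavoprotein Sdha and the second membrane anchor Sdhc depended on the probe set. Sdha was at 0.03 on its brightest probe set and at 0.53 on the next (adjusted p = 0.142 over all probe sets). Sdhc had a brightest probe set that was called present in 1 null line only, so no fold is given for it. Its mean log2 values were 7.75 in null and 7.54 in wild-type lines (adjusted p = 0.496 from limma). The dimmer probe set of Sdhc, called present in all 8 lines, read 3.86, 3.89 and 4.16 in wild-type, 4.0 and 4.13 in heterozygous and 5.67, 5.21 and 5.25 in null lines. There the null lines were higher, with a difference of 1.41 on the log2 scale (SE 0.15, adjusted p = 0.0265 over all probe sets in limma). The wild-type values on this probe set were low, near the array medians of 3.87 to 3.92.

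Complex I was mixed. None of the 6 core subunits passed on its brightest probe set, and their median was 0.16, or 0.46 with the mean of all probe sets of each gene. Ndufs3, which lies in the arm that takes electrons to ubiquinone, had log2 values of 7.40, 7.13 and 7.74 in wild-type, 7.05 and 7.34 in heterozygous and 8.71, 8.43 and 8.07 in null lines, without overlap (0.98 (SE 0.21, adjusted p = 0.0648)). Ndufs1, the largest iron-sulfur subunit, was at 0.75 (SE 0.22, adjusted p = 0.138). The remaining core subunits Ndufv1, Ndufs7, Ndufs8 and Ndufv2 lay between −0.07 and 0.28 on their brightest probe sets. A dimmer probe set of Ndufs8, called present in all 8 lines, read 7.0, 7.02 and 7.34 in wild-type, 7.30 and 7.18 in heterozygous and 8.11, 7.82 and 7.80 in null lines and was higher in the null lines by 0.79 (SE 0.13, adjusted p = 0.0472 over all probe sets in limma). For Ndufv1 a dimmer probe set, called present in 1 wild-type and 2 null lines, was at 1.03 (adjusted p = 0.122).

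The 28 accessory subunits of complex I had a median of 0.25, and 13 were higher in every null than in every wild-type line. Ndufs5 had the highest log2 fold change of the 90 genes. It read 5.32, 4.29 and 5.15 in wild-type, 4.62 and 5.49 in heterozygous and 7.04, 6.25 and 6.30 in null lines, a difference of 1.61 (SE 0.34, adjusted p = 0.0666) from wild-type, and was detected in all wild-type and null lines but in no heterozygous line. Against the heterozygous lines its level in null lines was therefore at least 2.78-fold higher. Ndufb10, a subunit of the membrane arm, read 7.39, 6.77 and 7.87, 6.93 and 7.19 and 8.58, 8.51 and 8.70 in the same order of genotypes. The wild-type lines were the more widely spread, and the log2 fold change was 1.25 (SE 0.25, adjusted p = 0.0565). Ndufa7 was at 0.70 (SE 0.13, adjusted p = 0.0521).

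Some accessory subunits pointed the other way. Ndufa12 had log2 values of 10.06, 9.78 and 10.44 in wild-type, 10.10 and 10.12 in heterozygous and 9.49, 9.91 and 8.95 in null lines, so that null line 3.34 lay within the wild-type range (−0.64 (SE 0.25, adjusted p = 0.244)). On its next probe set, called present in all 8 lines, the null lines, at 9.25, 9.69 and 9.21, lay below all others. The difference there was −0.49 (adjusted p = 0.130 over all probe sets in limma). Another present in all lines was at −0.15 with overlapping lines, and a dim one, called present in 1 null line, was at 0.16. On the brightest probe sets, Ndufv3, an accessory subunit of the NADH-oxidizing module, was the gene whose null lines, at 10.80, 11.10 and 10.96, all lay below the wild-type lines, at 11.44, 11.15 and 11.37 (−0.37 (SE 0.12, adjusted p = 0.175)). The heterozygous lines were at 11.19 and 11.14, line 5 within the wild-type range and line 3.1 just below it.

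Among the 8 assembly factors, which help to build complex I without being part of it, the median was 0.19 and none passed. Ndufaf5, an enzyme that modifies the core subunit Ndufs7, was called present in 1 wild-type, 1 heterozygous and all 3 null lines, with log2 values of 5.33, 5.24 and 5.16, 5.30 and 5.34 and 5.61, 6.18 and 5.98 (0.68 (SE 0.15, adjusted p = 0.0715)). Ndufaf6 had the lowest log2 fold change of the 90 genes. It read 7.25, 8.02 and 7.80 in wild-type, 6.91 and 7.53 in heterozygous and 6.90, 6.63 and 7.35 in null lines, and the ranges overlapped (−0.73 (SE 0.26, adjusted p = 0.207)). Ndufaf4 was at −0.61 (SE 0.32, adjusted p = 0.423) on its brightest probe set and at 0.49 on a dimmer one.

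Complex IV had the lowest median on the brightest probe sets, 0.01 over 11 genes, with 6 higher and 5 lower in mean and none passing. With the mean of all probe sets of each gene the median was 0.16 and all 11 were higher. The dimmer probe sets that were called present in all 8 lines differed within some genes. Cox5a was at 0.49 and 0.10, Cox5b at 0.32, 0.17 and −0.22, and Cox7a2l at 0.55 and −0.15. Cox6b1 was at 0.47, Cox7a2 at 0.31, Cox6c at 0.26 and Cox6a1 at 0.23. None of these probe sets passed. Cox4i1, the form of subunit 4 found in most tissues, had log2 values of 10.14, 10.13 and 10.59 in wild-type, 10.10 and 10.60 in heterozygous and 11.27, 11.16 and 10.87 in null lines (0.81 (SE 0.19, adjusted p = 0.079)). It and Ndufa4, at 0.38, were the genes of the complex whose null lines all lay above the wild-type lines on the brightest probe set. Cox6c was at 0.61 (SE 0.21, adjusted p = 0.193) with overlapping lines. The other subunits named by the rule, Cox6a1, Cox6b1, Cox7a2, Cox7a2l and Cox8a, lay between −0.24 and 0.27 on that probe set.

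The paralogs with a tissue-restricted pattern allowed a comparison with the common forms within each family. Cox6b2, which has 1 probe set, rose. Cox6b1 was at −0.11 (SE 0.14, adjusted p = 0.784) on its brightest probe set, while on the other the null lines, at 10.11, 10.12 and 9.78, all lay above the wild-type lines, at 9.43, 9.44 and 9.73 (0.47, adjusted p = 0.133 over all probe sets). No test of the difference between the paralogs was made. The muscle form Cox6a2 was not called present in any wild-type or null line, and its common form Cox6a1 was at −0.09. Cox7a1 and the common form Cox7a2 were at 0.19 and 0.02, and Cox8c and Cox8a at 0.07 and 0.27. Cox4i2 was at 0.17 beside 0.81 for Cox4i1, and its sign turned (−0.35) when the linear signal values were used in place of the RMA values. Among the paralogs, none but Cox6b2 passed.

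ATP synthase had a median of 0.19 over 17 genes, with 1 gene rising and none falling, and a wide range from −0.25 to 1.39. Atp5b, the catalytic subunit of the F1 head, had log2 values of 9.05, 8.42 and 9.62 in wild-type, 8.30 and 8.90 in heterozygous and 10.67, 10.36 and 10.23 in null lines. Wild-type line 3.3 was the closest to the null lines and the heterozygous lines were low, and the log2 fold change against wild-type was 1.39 (SE 0.30, adjusted p = 0.0666). Atp5j2, subunit f of the membrane part, was at 0.89 (SE 0.19, adjusted p = 0.0637). The other main subunit of the F1 head, Atp5a1, was at −0.16 on its brightest probe set, which was not called different, and at 0.78 on another (adjusted p = 0.0676 over all probe sets).

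The 3 genes Atp5g1, Atp5g2 and Atp5g3 encode the same mature subunit c, which forms the rotating ring. Atp5g1 read 6.63, 6.12 and 6.18 in wild-type, 7.78 and 6.19 in heterozygous and 7.66, 7.32 and 7.18 in null lines. Its null lines lay above the wild-type lines, but so did heterozygous line 5, which had the highest value of all (1.08 (SE 0.36, adjusted p = 0.178)). Atp5g2 and Atp5g3 were at 0.20 (SE 0.18, adjusted p = 0.675) and 0.27 (SE 0.16, adjusted p = 0.474).

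**Figure D3:**
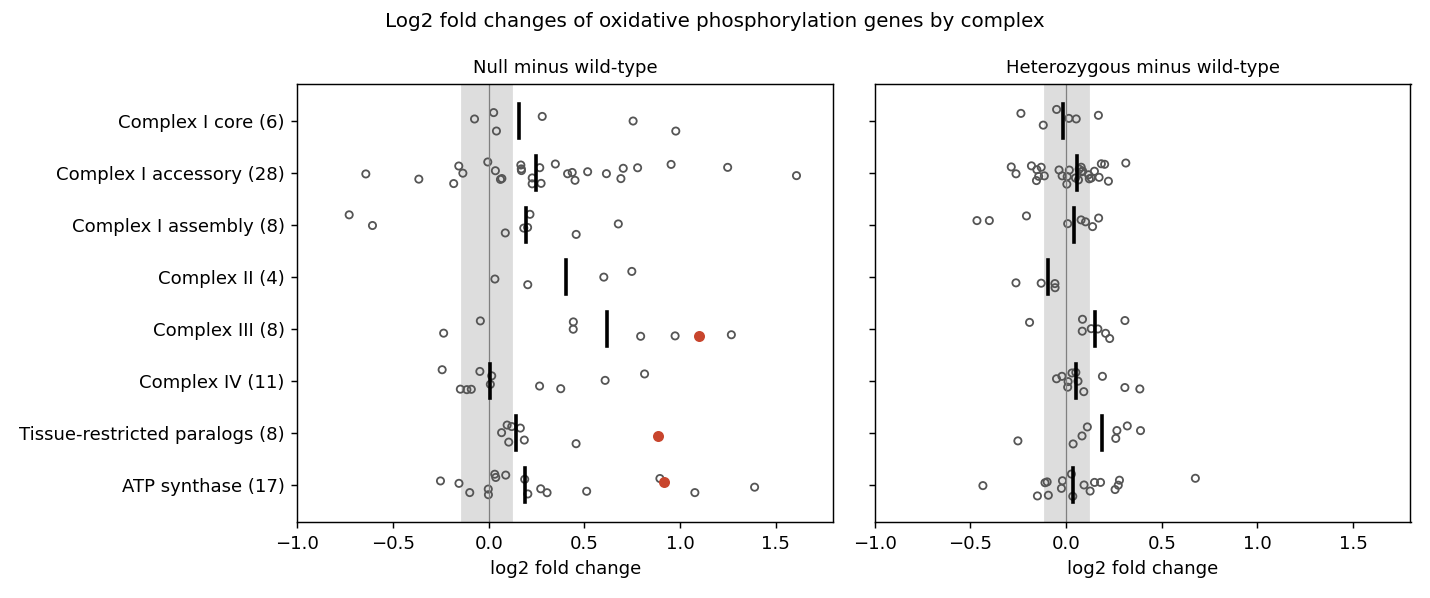
Log2 fold changes (horizontal axis) of the 90 genes, on the brightest probe set of each, by complex, null minus wild-type on the left and heterozygous minus wild-type on the right, with 1 point for each gene, filled where the adjusted p from limma is under 0.05. Black bars are medians, numbers in brackets are genes, and the grey band holds the range between the quartiles of all 18193 genes. The medians of complexes II and III, at 0.40 and 0.62, stand furthest to the right in the left panel.

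In all, 15 genes had probe sets of opposite sign between null and wild-type lines with at least 1 past 0.5 on the log2 scale. In 8 of them the brightest probe set was flat or lower and another was higher in null lines. For Atp5d the brightest was at 0.00, and the other, called present in 2 null lines and in no other line, was at least 2.18-fold higher in null than in wild-type lines (adjusted p = 0.138 over all probe sets). The values were for Atp5pb −0.25 and 0.52, for Cox7a2l −0.24 and 0.55, for Ndufv2 −0.07 and 0.62, for Ndufc2 −0.14 and 0.60, and for Atp5a1, Sdha and Ndufaf4 as above. None of these 8 genes had a probe set that passed (limma over all probe sets). Ndufab1, the mitochondrial acyl carrier protein, differed in the other direction, with 0.17 and −0.53. For Ndufa3, Ndufb2 and Atp5j2 the bright probe sets were alike and only a dim one, between −0.14 and −0.04, had the opposite sign. Over all probe sets, 8 of the 179 for these genes passed, all higher, against 0.561% higher and 0.358% lower of 34945. They included probe sets other than the brightest for 5 genes, Sdhc and Ndufs8 as above, Atp5j2 at 1.27 (adjusted p = 0.0496), Ndufb5 at 0.90 (adjusted p = 0.0496) and Ndufb7 at 1.30 (adjusted p = 0.0498), whose brightest were at 0.89, 0.27 and 0.41.

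The size of the difference moved with the brightness of the probe set, which depends on affinity as well as on the amount of RNA. Among the 82 detected genes, the 27 with a mean log2 value under 8 had a median log2 fold change, null minus wild-type, of 0.46, the 32 between 8 and 10 of 0.27, and the 23 above 10 of 0.00, while all detected genes in these ranges lay at −0.02, −0.03 and −0.03. By kind of probe set, the median was 0.38 for the 29 genes on probe sets that match 1 transcript alone (name ending in _at), 0.19 for the 31 on probe sets shared by transcripts of 1 gene (_a_at), 0.03 for the 15 on probe sets that several transcripts share (_s_at) and 0.27 for the 7 on probe sets with possible cross-matches (_x_at). Over all detected genes these were −0.02, 0.03, −0.05 and −0.09. The part of either property in the differences was not tested.

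**Figure D4:**
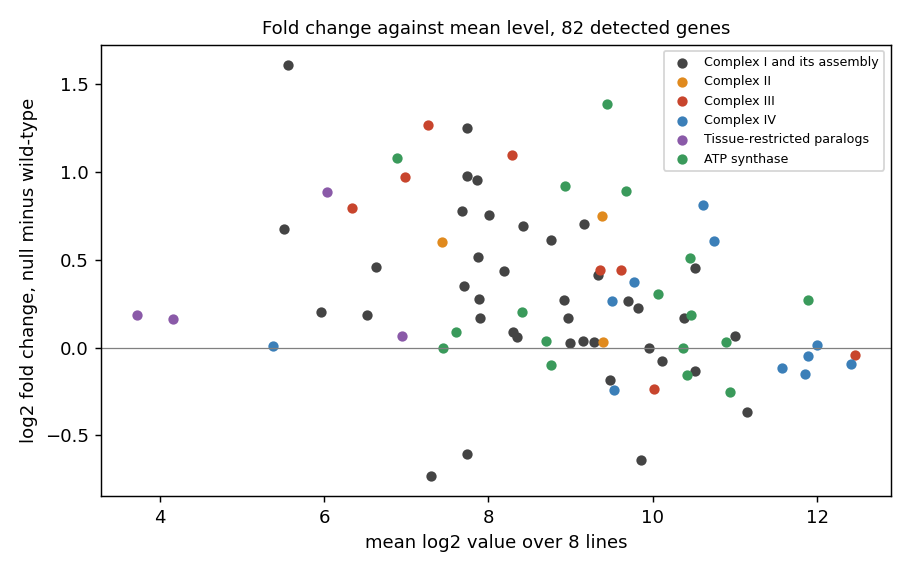
Null minus wild-type log2 fold change (vertical axis) against the mean log2 value over the 8 lines (horizontal axis) for the 82 detected genes, coloured by complex. Genes past 2-fold all lie at mean values under 10, and the genes above 11, 5 of them of complex IV, lie between −0.37 and 0.27.

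Between heterozygous and wild-type ESCs, which share the wild-type lines with the comparison above, no gene of the 90 passed and none of all genes did (0%), by limma. The median log2 fold change was 0.06 beside 0.01 over all genes. At an unadjusted p under 0.05, 3 genes were higher (Cox5a, Cox6b2 and Cox6a2, which was called present in 1 heterozygous line) and none lower, against 1.67% and 2.18% of all genes. No gene was past 2-fold, while 0.126% of all genes were in the higher and 0.209% in the lower direction. Both heterozygous lines lay above all wild-type lines for 8 genes and below them for 2, against 8.44% and 8.83% of all genes. The highest differences among detected genes were those of Atp5g1 at 0.68 (SE 0.40), Cox6b2 at 0.39 (SE 0.17) and Cox8a at 0.39 (SE 0.21). That of Atp5g1 came from line 5 alone and was −0.12 without it. The lowest were Ndufaf6 at −0.47 (SE 0.29), Atp5b at −0.43 (SE 0.33) and Ndufaf7, a methyltransferase that acts on complex I, at −0.40 (SE 0.31), the last at 0.081 without line 5. Each of the 4 complex II genes was lower in mean, down to −0.26 on the log2 scale for Sdhd.

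Between null and heterozygous ESCs no gene of the 90 and none of all genes (0%) passed limma, and the smallest adjusted p of the 90 was that of Atp5o at 0.067. The median log2 fold change was 0.15 beside −0.02 over all genes. At an unadjusted p under 0.05, 27 genes were higher (30.0%) and 4 lower, against 7.65% and 6.16% of all genes. Past 2-fold, 7 were higher and none lower, against 1.76% and 0.66%. These were Atp5b at 1.82, Ndufb10 at 1.53, Ndufs5 with the bound given above, Ndufa9 and Ndufs3, both at 1.21, Atp5o at 1.07 and Uqcr11 at 1.04. All null lines lay above both heterozygous lines for 29 genes (32.2%) and below them for 11 (12.2%), against 13.3% and 14.5% of all genes. Of the 37 genes whose null lines were above all wild-type lines, 25 were also above both heterozygous lines. These 37 had been picked for high null values, and the matching share over all genes was not counted, so the 25 cannot be judged against it. Without wild-type line 3.2, which enters this fit through the shared spread, 7 of the 90 genes passed, beside 346 of all genes. Without wild-type line 3.3, 4 did, beside 121 of all genes.

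The Y-linked gene Eif2s3y was called present in lines 3 and 3.2 (wild-type) and 3.1 (heterozygous), at log2 values of 6.02, 5.67 and 6.13, and in none of the other 5 lines (2.38 to 2.95), which include all null lines. With its detection as a covariate no gene of the 90 passed between null and wild-type lines, and 3 of all genes did. The median log2 fold change over the 90 genes was 0.18 in place of 0.20. All 37 genes picked for high null values kept a higher null mean (median 0.51 in place of 0.69), but the matching share over all genes was not counted. The X-linked complex I genes Ndufa1 and Ndufb11 varied between the lines of a genotype more than between genotypes. Ndufa1 read 10.13, 9.89 and 10.90 in wild-type, 10.99 and 9.99 in heterozygous and 10.86, 10.22 and 11.19 in null lines. Ndufb11 read 10.55, 10.92 and 11.39, 11.21 and 10.85 and 11.10, 10.67 and 11.30. Both were highest, within each genotype, in wild-type line 3.3, heterozygous line 5 and null line 3.38, the lines in which the median over 281 detected X-linked genes was also highest, at 0.31, 0.35 and 0.19 above each gene's median over lines, beside −0.30 to −0.03 in the other 5 lines.

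**Figure D5:**
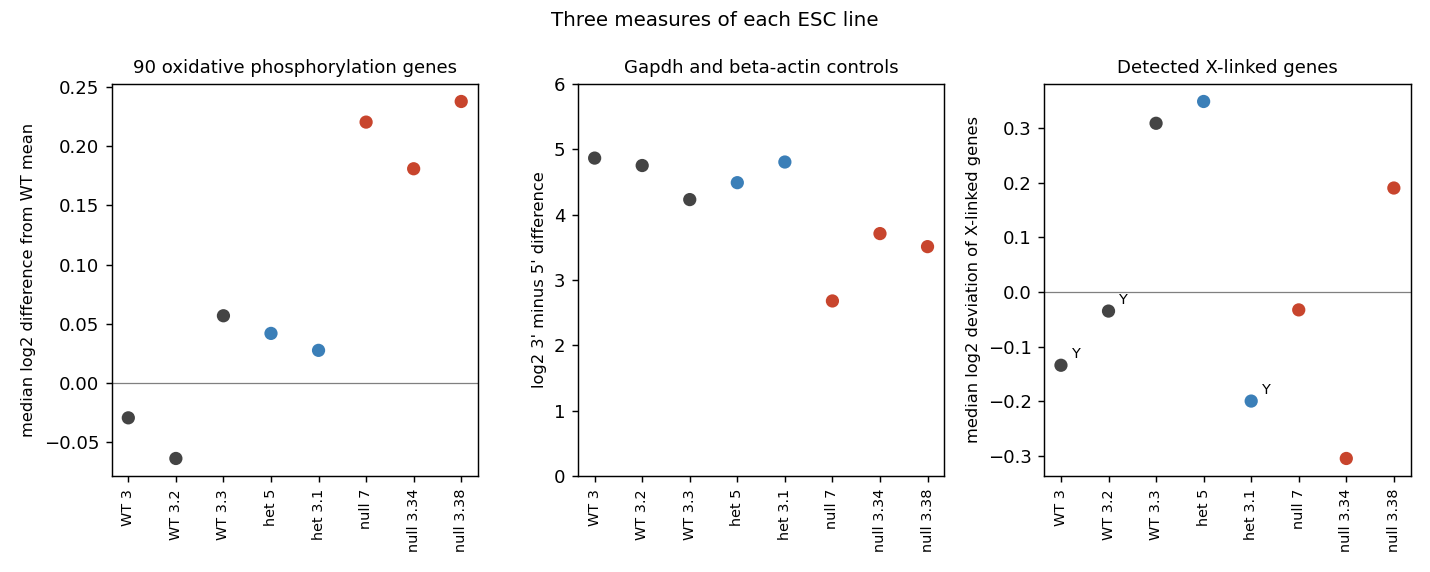
Left, median over the 90 genes of the log2 difference from the wild-type mean. Middle, 3′ minus 5′ log2 difference of the Gapdh and beta-actin controls. Right, median log2 deviation of detected X-linked genes from each gene's median over lines, with Y beside lines in which Eif2s3y was detected. Each point is 1 ESC line, and the 3 null lines are the highest in the left panel and the lowest in the middle panel.

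Genes of related functions outside the symbol rule were counted on lists. Of 41 assembly factors and electron carriers of the chain, 1 rose, Ecsit, which takes part in complex I assembly, and none fell, with a median log2 fold change of 0.10. Ecsit read 5.13, 4.74 and 5.14 in wild-type, 4.91 and 4.86 in heterozygous and 6.46, 6.03 and 6.19 in null lines (1.23 (SE 0.15, adjusted p = 0.0301)). Of 20 regulators of mitochondrial biogenesis and mitochondrial DNA, 1 rose, the PGC-1-related coactivator Pprc1, and none fell, with a median of 0.04. Pprc1 read 6.30, 6.44 and 6.69, 6.62 and 6.56 and 7.59, 7.44 and 7.09 (0.89 (SE 0.16, adjusted p = 0.0467)). Both genes were higher in every null line than in any other line.

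None of 22 citric acid cycle and pyruvate dehydrogenase genes passed, with a median of 0.11, and the smallest p-values were those of Suclg1 at 0.96 (SE 0.22, adjusted p = 0.0786) and Idh2 at 0.95 (SE 0.28, adjusted p = 0.139). None of 15 glycolysis genes passed either, with a median of 0.10 over a wide range, from −1.99 to 1.67, and the smallest p-values were those of Pfkp at 1.67 (SE 0.31, adjusted p = 0.0521) and Pkm at 0.79 (SE 0.21, adjusted p = 0.107). Among the markers of cell types, 1 of 10 ESC markers rose (Dppa5a, 1.23 (SE 0.15, adjusted p = 0.0301)). Their median log2 fold change was 0.63, with 9 higher and 1 lower in mean. None of 18 feeder fibroblast markers passed, with Col5a1 at −0.54 (SE 0.18, adjusted p = 0.166) and Thy1 at −0.43 (SE 0.17, adjusted p = 0.242). Their median was −0.38, with 4 higher and 14 lower. Of 15 endoderm markers 1 fell (Lamb1, −1.25 (SE 0.20, adjusted p = 0.0384)), and the median was −0.35, with 4 higher and 11 lower.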

How the data were processed

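Each of the 8 ESC lines gave 1 Affymetrix mouse expression array. The deposited log2 values, 1 per probe set and array, had been made by the authors with RMA, and the authors also deposited the linear signal intensity with the detection p-value and call of the Affymetrix software. The submitters' processing notes name RMA and limma without versions. Each log2 column matched the intensity of its own array best (8 of 8). Of 45101 probe sets, named by the platform annotation, 932 that name several genes were left out.

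Genotypes were compared on all 8 arrays with limma (version 3.58.1, R 4.3.3), by lmFit and eBayes with a mean per genotype, and p-values were adjusted by Benjamini-Hochberg over 18193 genes. Group medians are descriptions. No source says that each line came from a separate embryo, so p-values measure the spread between lines, whose number limits the precision. The study names a null and a wild-type line of 1 litter in 2 cases, and the deviations of these lines from their genotype means correlated at 0.09 and −0.01 over 7306 detected genes (other null and wild-type lines, −0.14 to 0.10). Alternatives changed the probe set rule, filter, normalization, arrays, covariates or litter block. Named genes are those passing, the 5 highest and 5 lowest fold changes for null and 3 and 3 for heterozygous lines among detected genes, the 2 smallest p-values of each group, all complex II genes, the paralog families and genes with probe sets of opposite sign. The members, lists and rules were chosen with earlier results of these data known. Tables and the permutation test used Python 3.11.15, scipy 1.17.1 and pandas 2.3.3.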

Additional observations from a re-analysis of the deposited data

How the results depend on the processing

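Of 1110 values of named genes recomputed under other settings (60 results), 1017 kept direction and side of the threshold, 39 lost and 31 gained the adjusted p from limma, 13 turned and 10, with no direction to begin with, moved by over 1 SE. The count of genes passing between null and wild-type lines (3) was 13 with detected genes alone, 0 with the linear signal values, 1 with the 2 genotypes alone (Cox6b2) and 0 with the 3′ minus 5′ covariate, and 0 to 7 with 1 line left out, 7 without wild-type line 3.3. It was 0 with Eif2s3y as a covariate and 0 without lines 3.2 and 3.1 together, the arrays with the fewest probe sets called present, both chosen after seeing the data. With the mean of all probe sets of a gene it stayed at 3, with Sdhc in place of Atp5o. The count over all genes moved too. From 206 in the main fit it went to 442 of 7306 with detected genes alone, 4 with the signal values and 149 with the 2 genotypes alone. It was 0 with the 3′ minus 5′ covariate, 3 with Eif2s3y as a covariate, 208 without wild-type line 3.3 and 138 with the mean of all probe sets. Between null and heterozygous lines (0) it was 4 with detected genes alone, 2 with the 2 genotypes alone, and 0 to 7 with 1 line left out. Between heterozygous and wild-type lines it was 0 throughout.

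The median log2 fold change of the 90 genes stayed positive between null and wild-type lines, at 0.19 to 0.24 with 1 line left out. With 1 line left out it was 0.02 to 0.09 for heterozygous against wild-type and 0.13 to 0.16 for null against heterozygous lines, and with the signal values it was 0.00103 and 0.23. The 3′ minus 5′ difference between null and wild-type lines (−1.31) was −1.52 to −1.0 with 1 line left out.

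Signs that turned between null and wild-type lines, with the cause not tested, were as follows. With the mean of all probe sets of a gene, Atp5a1 was at 0.18, Atp5pb at 0.14, Cox7a2l at 0.0525, Ndufab1 at −0.10 and Ndufc2 at 0.15. With the 3′ minus 5′ covariate, Atp5g2 was at −0.29, Cox6c at −0.14, Cox7a2l at 0.14, Cox8a at −0.23 and Ndufaf4 at 0.0926. With the signal values Cox4i2 was at −0.35. Between heterozygous and wild-type lines, Atp5g1 was at −0.12 without line 5 and 1.47 without line 3.1, and Ndufaf7 at 0.081 and −0.88. The litter block was chosen after seeing the data and could be fitted only for the 2 pairs the study names. On these 4 arrays the count passing was 2 with the replicate block and 3 without it, with a median of 0.22 in both, and none of the 3 genes passing on all arrays was among the 2. With litter as a random replicate block on all 8 arrays it was 5, those 3 included, with a median of 0.20, and 0 in the other comparisons. Between 28.4% and 35.3% of probe sets were called present on an array, which limits what can be said of the dim paralogs.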

Other observations

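The complex I subunits Ndufs6 and Ndufa11 were measured only on probe sets that also name a near-identical copy, and so stood outside the comparisons. The probe set for Ndufs6 and Ndufs6b read 9.03, 9.07 and 9.38 in wild-type, 9.04 and 9.23 in heterozygous and 9.88, 9.91 and 9.73 in null ESCs (log2 values, in the order wild-type 3, 3.2, 3.3, heterozygous 5, 3.1 and null 7, 3.34, 3.38), with all null lines above all others. A probe set for Ndufa11 and Ndufa11b read 5.56, 5.40 and 5.32, 6.03 and 5.35 and 6.77, 5.90 and 6.31 and was called present on 4 of the 8 arrays. Another probe set for both read 5.82 ± 0.08 (SD, n = 3) in wild-type ESCs, and 5.78 ± 0.03 (SD, n = 3) in null lines. The probe set that Ndufs5 shares with the pseudogene Ndufs5-ps read 5.82, 4.74 and 6.03, 5.69 and 5.51 and 7.32, 6.41 and 6.94, again with all null lines above the others, as on the probe set for Ndufs5 alone. In the other direction, the probe set that Ndufab1 shares with Ndufab1-ps was called present on all 8 arrays. It read 10.21, 10.38 and 10.26, 10.08 and 10.33 and 9.80, 9.79 and 10.19. All its null lines lay below all its wild-type lines, with a difference in mean of −0.35. A probe set shared by Ndufb4 and its copies Ndufb4b and Ndufb4c was called present on all 8 arrays and read 9.56 ± 0.10 in wild-type and 9.69 ± 0.22 in null lines (SD, n = 3 each), whereas the probe set for Ndufb4 alone was called present in 1 line.

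The mitochondrial genome encodes further complex I subunits, of which the platform names ND5. Its probe set read 11.07, 11.66 and 10.65 in wild-type, 11.68 and 11.42 in heterozygous and 10.02, 10.38 and 11.19 in null lines, a log2 fold change of −0.60 (SE 0.33, adjusted p = 0.444) from limma between null and wild-type lines, with overlapping values.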
